A study of Mus musculus with 12 samples.

Results

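Expression of 37 genes of glycolysis and of the response to low oxygen was followed in mouse embryonic stem cells (ESCs) and in the embryoid bodies (EBs) grown from them, in wild-type (WT) cells and in cells lacking HP1α or HP1β. The genes were listed by symbol for their roles, with no measured value in the rule. They were 4 transporters of glucose and lactate, 17 glycolytic enzymes and 4 regulators of glycolytic flux. The rest were 3 genes of the hypoxia factor HIF-1 and its oxygen sensors, and 9 other hypoxia response genes. A feature annotated to that symbol alone was found for 34 of the 37, among 19938 genes on the array. Gpi1 and Eno1 had no feature of that symbol, and Gapdh occurred only in a feature shared between several symbols, so these 3 enzymes are not analysed here. Car9, a carbonic anhydrase induced in low oxygen, stayed between 3.12 and 3.81 on the log2 scale in all 12 libraries, under the background level of 5.49 (a signal of 45), and was not tested. The other 33 members were tested among 10880 genes that exceeded this level on at least 1 array. Of the 33, 29 exceeded it on all 12 arrays. The remaining 4 passed through some libraries only, so that the tested members are not a neutral sample of the list.

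HP1α and HP1β, the products of Cbx5 and Cbx1, are heterochromatin proteins that bind methylated histone H3. The 12 arrays were 2 labelled biological replicates of each of 6 groups: ESC WT, ESC HP1aKO (Cbx5-/-), ESC HP1bKO (Cbx1-/-), and EB WT, EB HP1aKO and EB HP1bKO at day 7. The WT libraries came from the line HM1, which the methods call the littermate control line, and both knockouts (HP1αKO and HP1βKO below) carry the line label R1, so that line label and genotype cannot be told apart in any comparison of a knockout with WT. ESCs were untreated and grown with mouse embryonic fibroblast feeders. Per the study's text, cells positive for SSEA1, a surface marker of pluripotent cells, were taken from every ESC type with magnetic beads before profiling. The gate was meant to keep out feeders and differentiating cells. EBs formed in suspension without LIF, the cytokine that holds ESCs undifferentiated, and no sort of them is described. Nothing says whether replicates came from separate derivations, so p-values measure the spread between these libraries. In bulk RNA, fewer cells of a type and less RNA per cell cannot be told apart.

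Glycolysis splits glucose into pyruvate in the cytoplasm. Glucose enters through the Slc2a carriers, hexokinase and phosphofructokinase commit it to the pathway, and lactate dehydrogenase converts the pyruvate to lactate, which leaves through the Slc16a carriers. The factor HIF-1, whose oxygen-regulated subunit is encoded by Hif1a, activates many of these genes together with genes of angiogenesis, mitophagy and collagen modification. When oxygen is present the prolyl hydroxylases, among them the products of Egln1 and Egln3, mark HIF-1α for destruction, and Egln3 is itself a HIF-1 target. ESCs are known for high glycolytic activity, and control of HIF-1α is largely exerted on the protein, which these arrays do not measure.

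HIF-1 binds DNA through a core of 5 bases, ACGTG or GCGTG. The promoters of 5 members with differences described below are shown with these letters marked. They were picked by name and not by a rule. The sequences are RefSeq's 250 bases before the start site, 5′ to 3′ on the strand of the gene. Capitals mark ACGTG or GCGTG on either strand (CACGT or CACGC when read on the printed strand), and overlapping matches form 1 longer run.
Slc16a1 (GRCm38.p6, chr3:104638414-104638663, plus strand): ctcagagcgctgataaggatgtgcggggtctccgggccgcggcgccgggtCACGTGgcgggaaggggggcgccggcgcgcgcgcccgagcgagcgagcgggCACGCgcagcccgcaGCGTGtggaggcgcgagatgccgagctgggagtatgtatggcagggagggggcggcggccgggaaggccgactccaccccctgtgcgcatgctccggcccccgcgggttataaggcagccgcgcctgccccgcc
P4ha2 (GRCm38.p6, chr11:54100674-54100923, plus strand): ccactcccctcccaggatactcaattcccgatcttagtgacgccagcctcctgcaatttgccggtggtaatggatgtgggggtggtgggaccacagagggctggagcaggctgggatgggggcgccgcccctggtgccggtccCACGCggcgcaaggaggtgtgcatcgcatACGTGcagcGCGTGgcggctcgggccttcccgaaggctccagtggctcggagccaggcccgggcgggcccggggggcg
Pfkp (GRCm38.p6, chr13:6648772-6649021, minus strand): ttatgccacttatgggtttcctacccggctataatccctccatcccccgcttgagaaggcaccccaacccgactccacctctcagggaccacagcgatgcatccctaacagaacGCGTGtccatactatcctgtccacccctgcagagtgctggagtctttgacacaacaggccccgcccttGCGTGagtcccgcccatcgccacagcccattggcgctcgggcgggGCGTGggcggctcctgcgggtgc
Bnip3 (GRCm38.p6, chr7:138909507-138909756, minus strand): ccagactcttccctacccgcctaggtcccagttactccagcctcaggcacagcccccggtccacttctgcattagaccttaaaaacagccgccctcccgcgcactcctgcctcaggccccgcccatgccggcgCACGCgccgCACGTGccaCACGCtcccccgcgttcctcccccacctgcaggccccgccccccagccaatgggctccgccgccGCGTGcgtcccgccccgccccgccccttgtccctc
Ankrd37 (GRCm38.p6, chr8:45999851-46000100, minus strand): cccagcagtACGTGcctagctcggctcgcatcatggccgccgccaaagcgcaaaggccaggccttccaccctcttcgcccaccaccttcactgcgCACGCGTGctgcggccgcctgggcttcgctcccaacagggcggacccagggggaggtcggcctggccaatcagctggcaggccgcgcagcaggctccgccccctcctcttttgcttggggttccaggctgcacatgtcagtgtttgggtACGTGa
Slc16a1 encodes the lactate carrier MCT1, P4ha2 a collagen prolyl hydroxylase, Pfkp the platelet phosphofructokinase, Bnip3 a mitophagy receptor and Ankrd37 an ankyrin repeat protein. Within the printed bases Slc16a1 had 4 matches, P4ha2 3, Pfkp 3, Bnip3 5 and Ankrd37 4, counting a CACGTG palindrome on both strands. The 3 matches of Pfkp were all GCGTG. Among members not printed that also differed, Ldhb and Egln3 had 1 match each in the windows described next. P4ha1 and Hif1a had 3 each there. RefSeq windows of 300 bases, from 250 before the start site to 50 after it, were found for 35 of the 37 members (49 windows), with no entry for Slc2a3 and Ndrg1. Either core was present in 81.6% of the member windows, against 43.8% of all 32851 windows. ACGTG was in 57.1% against 19.6%, and GCGTG in 59.2% against 32.4%, with windows that hold both cores counted in each share. The median GC content of the member windows was 62.3%, against 52.7% over all windows, and its part in these shares was not tested. Members were listed partly as hypoxia response genes, so these shares describe the list and add no support for any result. Members with several windows count more than once. A match describes letters in a window and not a bound site.

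Before any result, 2 of the ESC libraries went against their labels. Cbx5, the gene deleted in HP1αKO, was at 9.66 and 8.29 in ESC WT replicates 1 and 2 and at 8.04 and 10.00 in ESC HP1αKO replicates 1 and 2. The libraries labelled ESC WT 2 and ESC HP1αKO 2 thus lay on the wrong side, and results that rest on them are given with them and in many cases without them. Leaving them out keeps 1 ESC library each of WT and HP1αKO. In these, ESC WT 1 and ESC HP1αKO 1, 12 fibroblast markers summed to 2198.5 and 1310.2, the highest sums among ESC libraries. The part of this in the results without the 2 libraries was not tested. Fits over both states without them draw the spread mostly from EB groups, whose replicates lay closer together. Their p-values may therefore be too small and their counts too high. In EBs Cbx5 was lower in both HP1αKO libraries (9.20 and 9.21, against 10.36 and 10.40 in EB WT), and Cbx1 was lower in all 4 HP1βKO libraries. Replicate spread differed between the states. The SD over members of the difference between replicates was 0.37 to 0.51 in the 3 ESC groups and 0.10 to 0.15 in the 3 EB groups, and for this reason knockout and WT were compared within each state. The 10 pluripotency markers summed to signals of 14912.5 to 22701.5 in ESCs and 1825.7 to 4171.4 in EBs, so the state labels held.

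**Figure D1:**
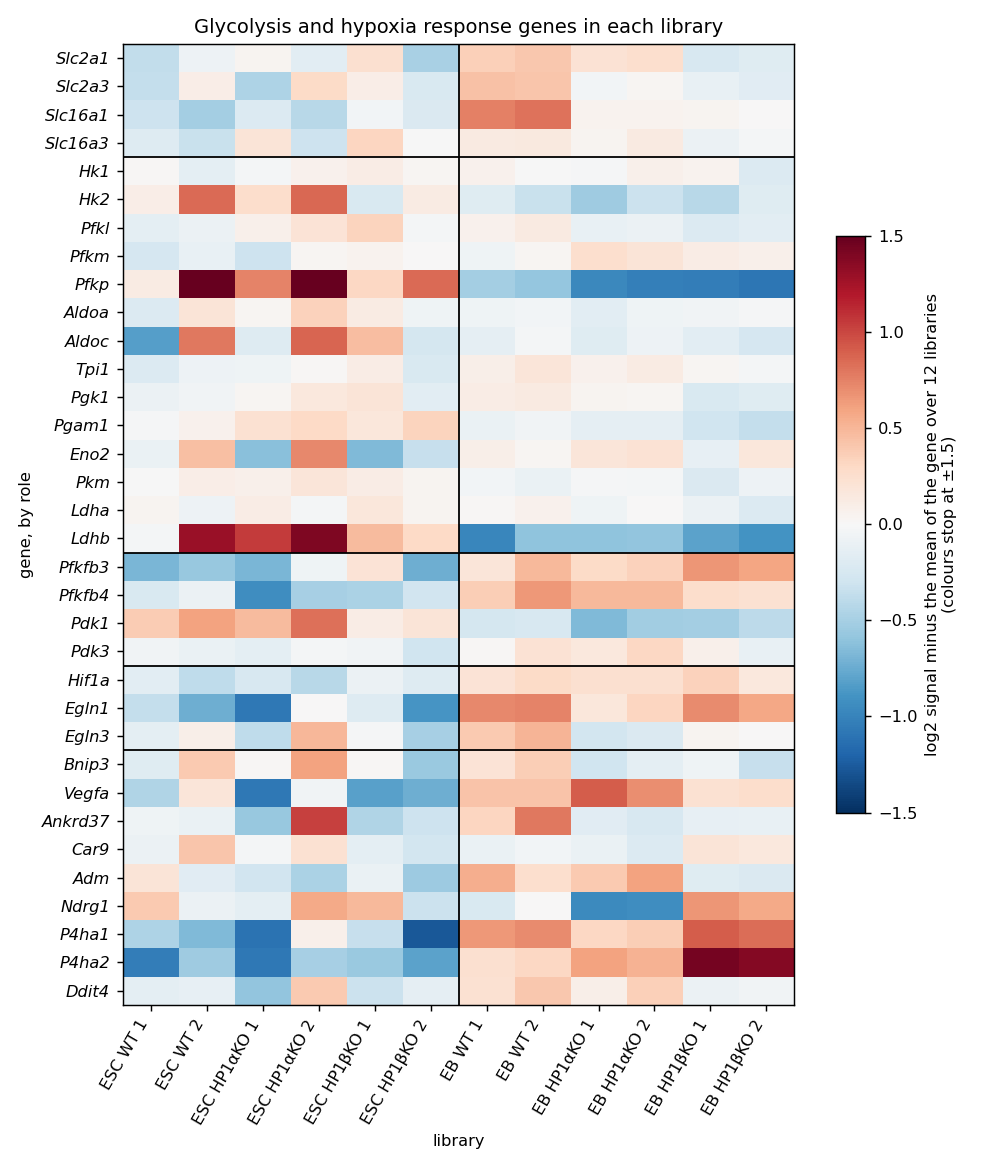
Log2 signal of the 34 members found, each minus its own mean over the 12 libraries, with rows ordered by role and black lines between roles and between ESC and EB libraries. Pfkp and Ldhb are high in ESC libraries and low in EBs, P4ha2 rises from ESCs to EBs and is highest in EB HP1βKO, and the ESC columns of 1 genotype differ more from each other than the EB columns do.

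In WT cells the members split between the states. The HIF-1 subunit gene Hif1a, the oxygen sensor gene Egln1, the collagen hydroxylases P4ha1 and P4ha2, the lactate carrier Slc16a1 and the kinase Pfkfb3 were higher in EBs. Ldhb, Pfkp and Pdk1 were higher in ESCs. The sensor gene Egln3 (0.48, adjusted p = 0.183) and the carrier Slc16a3 (0.40, adjusted p = 0.105) did not pass. Of the 33 tested members 7 rose and 3 fell in EB WT against ESC WT. Of the 7, Pfkfb4 was over background in EB libraries alone, so that it could only have been called in this direction. Over all tested genes 36.2% passed the same test (22.0% higher and 14.2% lower), so the members' share of 30.3% was near the background. The median difference of the members was 0.22 on the log2 scale, and that of all tested genes 0.05.

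Among the transporters only Slc16a1 passed the test. It was at 10.23 and 10.03 in ESC WT and at 11.30 and 11.35 in EB WT, without overlap, a difference of 1.19 ± 0.13 (limma standard error, n = 2 libraries per group), or 2.29-fold (adjusted p = 0.000209). In HP1αKO the corresponding difference was 0.36 and in HP1βKO 0.15, neither past the threshold. The glucose carriers Slc2a1 and Slc2a3 gave 0.60 and 0.55 in WT and did not pass with all libraries. Without the 2 libraries that opposed their labels, the WT differences were 0.75 for Slc2a1 and 0.78 for Slc2a3, measured against ESC WT 1 alone.

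The enzymes that passed between the states with all libraries in the fit, Pfkp, Ldhb, Hk2 and Pgam1, fell in EBs. Without the 2 libraries that opposed their labels, Pfkm (0.54, adjusted p = 0.00648) was higher in HP1αKO EBs, and so was Eno2, although all its libraries in that comparison were under background, beside 4 enzymes that were lower. Pfkp was at 9.11 and 10.57 in ESC WT, 9.73 and 10.56 in ESC HP1αKO and 9.30 and 9.83 in ESC HP1βKO. In EBs it was at 8.48 and 8.41 in WT, 8.02 and 7.96 in HP1αKO and 7.95 and 7.90 in HP1βKO. Each EB library was below each ESC library. The fall was 1.39 ± 0.42 in WT (adjusted p = 0.0295), and the differences in HP1αKO and HP1βKO were -2.15 and -1.64. Ldhb, the lactate dehydrogenase chain that favours lactate use, was at 8.93 and 10.25 in ESC WT and at 7.98 and 8.35 in EB WT. Its difference was -1.43 ± 0.35 in WT (adjusted p = 0.0120), -1.82 in HP1αKO and -1.24 in HP1βKO. Both genes were highest in the libraries labelled ESC WT 2 and ESC HP1αKO 2. Without these libraries the WT differences were -0.66 for Pfkp (adjusted p = 0.0335) and -0.77 for Ldhb (adjusted p = 0.0102). In the same 2 libraries the pluripotency markers summed to 22701.5 and 21641.0, and the fibroblast markers to 475.0 and 486.7. The fibroblast sum was similar in ESC HP1βKO 2 (501.1) and was 958.8 to 2198.5 in the 3 ESC libraries numbered 1. The SSEA1 sort is described for every ESC type. The part of these markers in the result was not tested. Hk2, the inducible hexokinase, fell in HP1αKO (-0.99, adjusted p = 0.0168, and -0.70 without the same 2 libraries), with -0.73 in WT and -0.25 in HP1βKO, neither past the threshold.

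Most glycolytic enzymes did not pass the test between the states. Pgam1, phosphoglycerate mutase, fell in HP1αKO (-0.39) and HP1βKO (-0.58) but not past the threshold in WT (-0.10). Hk1, Aldoa, Tpi1, Pgk1, Pkm and Ldha, all abundant, passed the test in none of the 3 genotypes. Ldha, the chain that makes lactate, ranged from 12.04 to 12.28 in ESCs and from 11.91 to 12.18 in EBs. Its largest EB difference was -0.25, in HP1βKO.

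Among the regulators, Pdk1, which encodes a kinase that inhibits pyruvate dehydrogenase, fell in EBs of every genotype. It was at 9.09 and 9.31 in ESC WT and at 8.44 and 8.46 in EB WT, and the difference was -0.76 ± 0.15 (adjusted p = 0.00447). The kinases encoded by Pfkfb3 and Pfkfb4 make the phosphofructokinase activator fructose 2,6-bisphosphate. Pfkfb3 rose in WT (0.96) and HP1βKO (0.89). Pfkfb4 was under the background level in all 6 ESC libraries (4.59 to 5.43) and over it in all 6 EB libraries (5.75 to 6.17). Where a group lay under background in both libraries, only a bound is given, the mean of the other group against that level. For Pfkfb4 the EB level was at least 1.45-fold higher in WT, 1.42-fold in HP1αKO and 1.21-fold in HP1βKO. It entered the test through EB libraries alone, so its calls add no support to the counts.

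Hif1a was higher in EBs of the 3 genotypes, at 9.57 to 9.76 against 8.99 to 9.32 in ESCs, and its difference in WT was 0.51 ± 0.14 (adjusted p = 0.0178). Centring each library on its own median took the Hif1a call away in WT (0.39, adjusted p = 0.0691) and in HP1βKO (0.27, adjusted p = 0.183). Egln1 was at 7.68 and 7.30 in ESC WT and at 8.75 and 8.78 in EB WT, a rise of 1.27 ± 0.33 (adjusted p = 0.0154), and it rose by 1.18 in HP1βKO. The collagen prolyl 4-hydroxylases P4ha1 and P4ha2 belong to the same enzyme family as the oxygen sensors encoded by Egln1 and Egln3. P4ha1 rose by 1.25 ± 0.37 in WT (adjusted p = 0.0259) and by 1.68 in HP1βKO. P4ha2 was at 6.48 and 6.98 in ESC WT and at 7.75 and 7.83 in EB WT, and rose by 1.06 ± 0.22 (adjusted p = 0.00517). Its rise was 1.36 in HP1αKO and 2.09 in HP1βKO. The 12 fibroblast markers, 5 of them collagens, summed to 475.0 to 2198.5 in ESCs and to 2212.0 to 5845.6 in EBs. Not all of them rose. The means of Thy1 (4.61 against 6.64), Fbln2 (6.10 against 7.13), S100a4 (3.67 against 4.46) and Col6a1 (6.24 against 6.39) were lower in EB WT than in ESC WT, and the others were higher. The part of these markers in the rise of the hydroxylases was not tested. Vegfa, the angiogenic growth factor, rose in HP1αKO (1.36 ± 0.30, adjusted p = 0.00622) and in HP1βKO (1.02, adjusted p = 0.0258), with 0.56 in WT. It passed in WT (0.88, adjusted p = 0.00172) once the 2 label-opposing libraries were left out. In HP1αKO the peptide hormone gene Adm rose from under background (5.40 and 5.22) to 6.08 and 6.29, at least 1.61-fold (adjusted p = 0.00668). The stress-induced gene Ndrg1 fell there (-1.15, and -0.80 without the 2 label-opposing libraries). Neither passed in WT (0.39 and -0.26) or in HP1βKO (0.13 and 0.54).

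**Figure D2:**
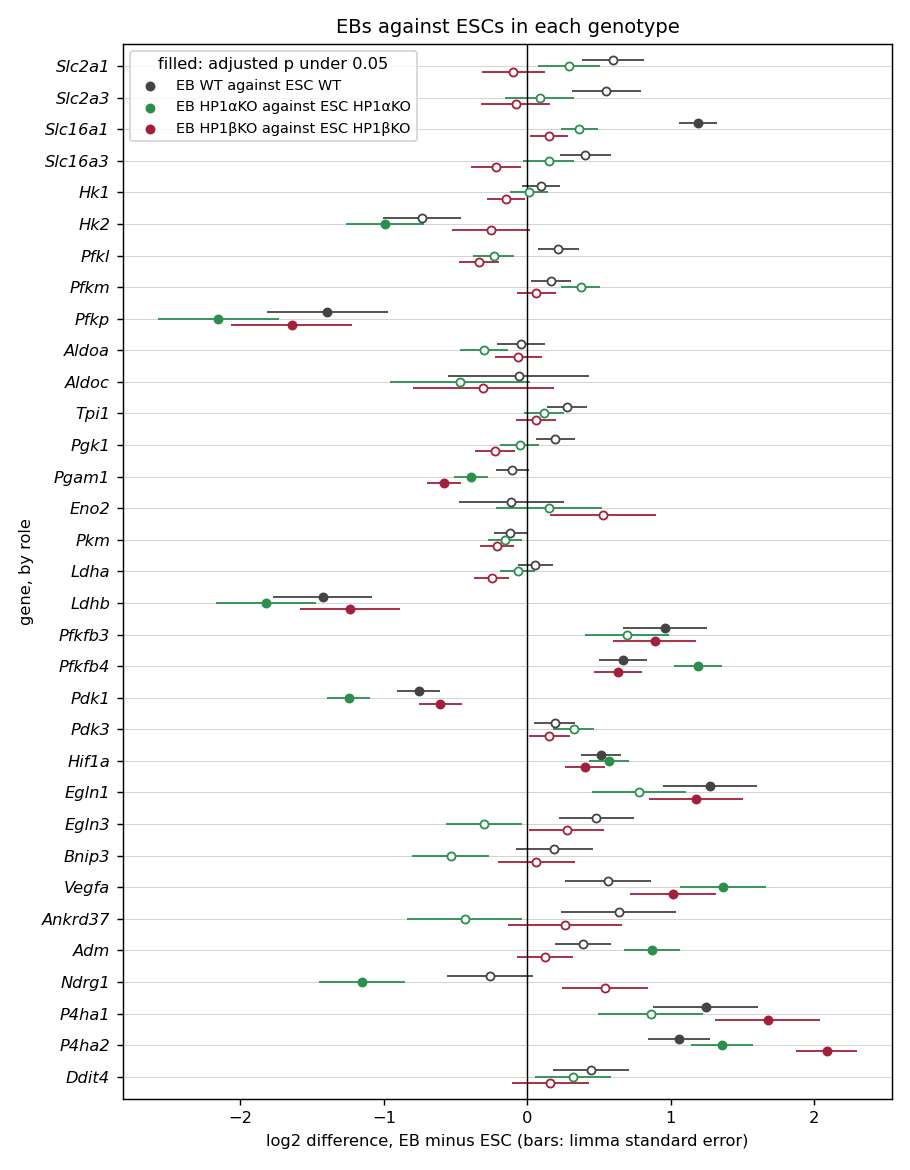
Log2 difference between EB and ESC for the 33 tested members in the 3 genotypes, with limma standard errors, filled points having an adjusted p under 0.05. Pfkp, Ldhb and Pdk1 lie left of 0 in all 3 genotypes, Hif1a and P4ha2 lie right of 0 in all 3, as does Pfkfb4, whose ESC libraries were all under background, and Slc16a1 stands apart in WT at 1.19.

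In HP1αKO 5 members rose and 6 fell against a background of 41.6% of all genes, and in HP1βKO 7 rose and 4 fell against 37.1%. By direction the background was 25.0% higher and 16.5% lower in HP1αKO, and 22.0% and 15.1% in HP1βKO. Hif1a and P4ha2 rose and Ldhb, Pdk1 and Pfkp fell in each of the 3 genotypes. Pfkfb4, which passed the filter only in EBs, was called higher in each as well, 9 members passed in 1 or 2 genotypes, and 18 in none. Without the 2 label-opposing libraries the 10 members called in WT and the 11 called in HP1αKO all kept their calls, and the counts rose to 15 in WT and 18 in HP1αKO. Of these, 12 were higher in each genotype. The background was then 38.9% in WT (24.8% higher) and 49.3% in HP1αKO (30.2% higher). These fits take the spread of the lone remaining ESC library of a genotype from the other groups. Over all genes the SD of the replicate difference was 0.13 to 0.20 in the EB groups and 0.39 in ESC HP1βKO. With both libraries it was 0.57 in ESC WT and 0.50 in ESC HP1αKO. The added calls may thus rest on too small a spread. Centring moved the median difference of all genes from 0.05 to -0.08 in WT, from 0.05 to -0.08 in HP1αKO and from 0.04 to -0.09 in HP1βKO. Of the genes called, 60.7%, 60.2% and 59.2% were higher in EBs as deposited, and 46.2%, 46.3% and 45% after centring. Relative to that shift the members split 6 higher to 4 lower in WT, 5 to 9 in HP1αKO and 6 to 6 in HP1βKO. With only 1 library of either group in the fit, the WT count was lowest at 4 of 33, without EB WT 1 and equally without EB WT 2. P4ha2, Pdk1 and Slc16a1 passed in WT whichever of the 4 libraries was left out.

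In EBs that lacked HP1β, the carriers Slc2a1, Slc2a3 and Slc16a1 and the hypoxia genes Adm, Ankrd37, Bnip3 and Egln3 were lower than in WT, and P4ha2 and Ndrg1 were higher. Of the 33 tested members 2 rose and 10 fell, while over all genes 9.42% rose and 9.36% fell (18.8% in all). The median member difference was -0.18 and that of all genes -0.01, and 26 of 33 members lay below 0. The spread was taken from the 6 EB libraries. When the ESC libraries shared it as well, 2 members passed (P4ha2 and Slc16a1, background 3.24%), so that Slc16a1 was then the only carrier called.

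The 3 transporters that passed lay lower in both HP1βKO EB libraries than in both WT ones. Slc16a1 was at 11.30 and 11.35 in EB WT, at 10.59 and 10.59 in EB HP1αKO and at 10.58 and 10.55 in EB HP1βKO. The HP1βKO difference was -0.76 ± 0.08 (adjusted p = 0.000690), or 1.69-fold lower. Slc2a1, the widespread glucose carrier GLUT1, was at 12.51 and 12.56 in WT and at 11.92 and 11.97 in HP1βKO, lower by 1.51-fold (-0.59 ± 0.08, adjusted p = 0.00242). Slc2a3, which encodes the high-affinity carrier GLUT3, was at 12.22 and 12.20 in WT and at 11.67 and 11.62 in HP1βKO (-0.57 ± 0.08, adjusted p = 0.00304). The lactate exporter Slc16a3 differed by -0.20 and did not pass. Downstream of the carriers Pfkp (-0.52), Pgk1 (-0.33) and the liver phosphofructokinase Pfkl (-0.28, adjusted p = 0.0492) fell, and the other 11 enzymes tested did not pass, with differences of -0.25 to 0.12. None of the 4 flux regulators passed.

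The hypoxia response genes of HP1βKO EBs went both ways. P4ha2 was at 7.75 and 7.83 in WT and at 8.95 and 8.89 in HP1βKO, higher by 1.13 ± 0.09 (2.19-fold, adjusted p = 0.000147). Ndrg1 was at 7.55 and 7.78 in WT and at 8.44 and 8.35 in HP1βKO (0.73 ± 0.10, adjusted p = 0.00250). These 2 rises stood against 4 falls among the sensor and response genes. Ankrd37 was at 6.26 and 6.72 in WT and at 5.81 and 5.82 in HP1βKO (-0.68 ± 0.14, adjusted p = 0.0162). Adm was at 6.24 and 5.94 in WT and at 5.51 and 5.47 in HP1βKO, at the background level in the knockout (-0.60 ± 0.12, adjusted p = 0.0144). Bnip3 fell by 0.49 on the log2 scale and Egln3 fell by 0.43. Hif1a itself differed by 0.01 ± 0.09, and Egln1 by -0.09. Beside these values the fibroblast markers summed to 2212.0 and 2410.7 in EB WT and to 5845.6 and 5345.9 in EB HP1βKO, with 9 and 10 of 12 markers over background. Among them Loxl1 went the other way, at 6.07 and 6.40 in WT and 5.69 and 5.41 in HP1βKO. The cardiac markers summed to 7205.3 and 6744.2 in WT and to 1114.4 and 779.7 in HP1βKO. The pluripotency markers summed to 2115.7 and 2384.0 in WT and to 4171.4 and 3988.8 in HP1βKO. Among them Sox2 went the other way, at 8.83 and 9.09 in WT and 8.52 and 8.22 in HP1βKO. The neuronal markers summed to 439.5 and 490.1 in WT and to 174.5 and 157.6 in HP1βKO, with 3 and 0 of 8 over background. The part of such cell types in the member differences was not tested.

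HP1αKO EBs were compared with the same 2 EB WT libraries, so that the results of both knockouts are not independent. Of the 33 members 1 rose and 9 fell, against 7.04% and 5.09% of all genes (12.1% in all). With the spread of all 12 arrays 1 member passed (Slc16a1, background 1.24%). Ndrg1 was at 6.82 and 6.85 in HP1αKO, lower than WT by 0.83 on the log2 scale, where it had been higher in HP1βKO (-0.83 ± 0.10, adjusted p = 0.00243). Egln3 was at 7.08 and 7.20 in WT and at 6.41 and 6.47 in HP1αKO (-0.70 ± 0.09, adjusted p = 0.00243). Slc16a1 differed by -0.74 ± 0.08 (adjusted p = 0.00148). Ankrd37 (-0.76), Bnip3 (-0.52), Egln1 (-0.48), Pfkp (-0.45), Slc2a3 (-0.43) and P4ha1 (-0.34) also fell. The only member that rose was Vegfa (0.37 ± 0.10, adjusted p = 0.0445), and with centred libraries it did not pass (0.33, adjusted p = 0.0727). Of all genes called, 58.0% were higher as deposited and 48.2% after centring. With EB HP1αKO 1 or EB HP1αKO 2 left out 3 members passed, Ndrg1, Egln3 and Slc16a1, which passed without any single library.

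**Figure D3:**
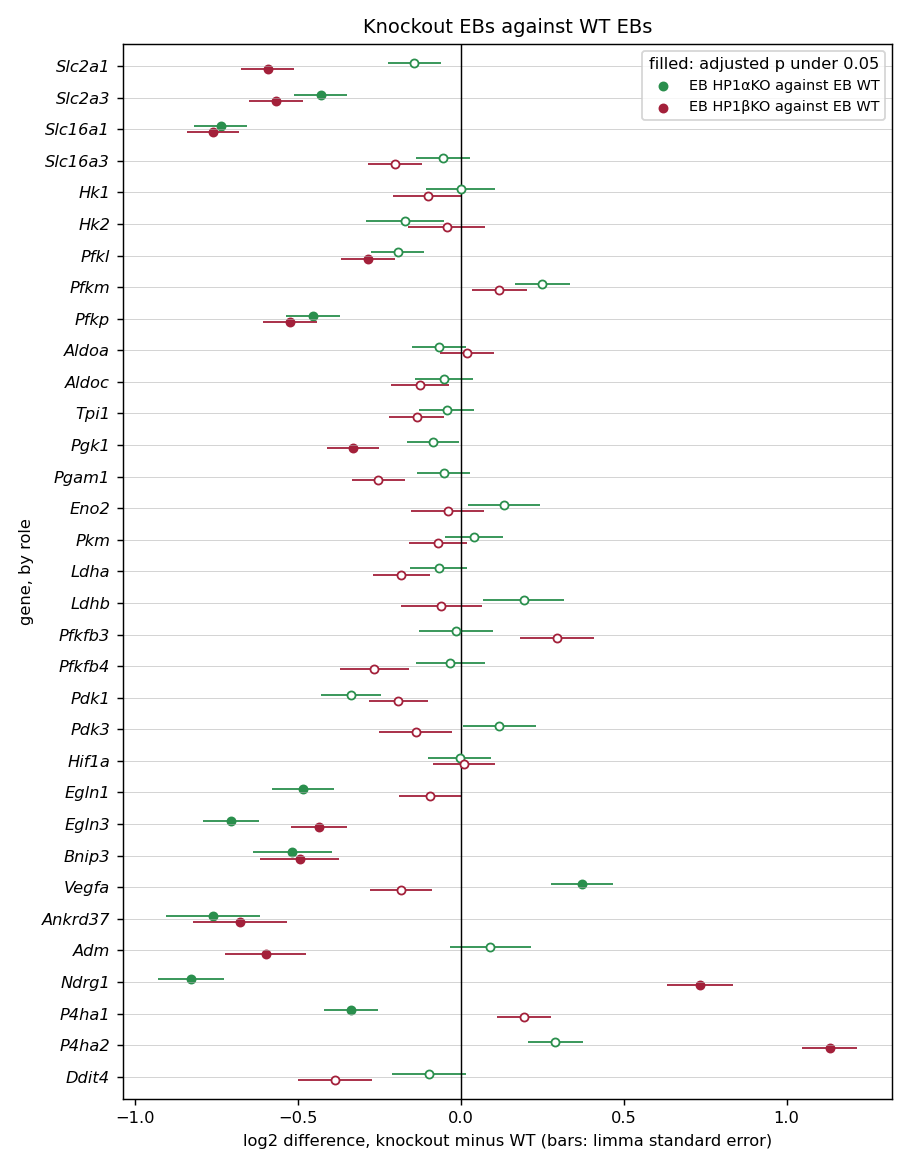
Log2 difference between knockout and WT EBs for the 33 tested members, with limma standard errors, filled points having an adjusted p under 0.05 and both knockouts measured against the same 2 WT libraries. Slc16a1 lies near -0.75 for both knockouts, Ndrg1 lies at -0.83 for HP1αKO and 0.73 for HP1βKO, and P4ha2 at 0.29 and 1.13.

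Side by side, 6 members were called lower in both knockouts (Ankrd37, Bnip3, Egln3, Pfkp, Slc16a1 and Slc2a3). A further 4 were called lower in HP1βKO alone (Adm, Pfkl, Pgk1 and Slc2a1), and Egln1 and P4ha1 in HP1αKO alone. Ndrg1 was called in opposite directions. The 2 EB WT libraries both lay above all 4 knockout EB libraries for 13 of 33 members, and below them for 2, where 12.5% and 15.5% of all tested genes did so. As WT and knockout EBs also differ in line label, these orders cannot be assigned to genotype.

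The comparison of the knockouts with each other holds the line label R1 constant. In EB HP1βKO against EB HP1αKO 4 members were higher and 3 lower, against 8.3% and 11.6% of all genes (19.9% in all). Ndrg1 gave the largest difference, 1.56 ± 0.10 (2.95-fold, adjusted p = 5.09e-05), its HP1αKO libraries at 6.82 and 6.85 and its HP1βKO libraries at 8.44 and 8.35. It was the only member to pass when the 12 arrays shared 1 spread (adjusted p = 0.0185, background 3.73%). P4ha2 (0.84 ± 0.09), P4ha1 (0.53) and Egln1 (0.39), 3 prolyl hydroxylase genes, were higher in HP1βKO. Adm (-0.69 ± 0.12, adjusted p = 0.00737), Vegfa (-0.55 ± 0.10) and Slc2a1 (-0.45 ± 0.08) were lower. Vegfa was at 8.65 and 8.44 in HP1αKO, at 8.17 and 8.17 in WT and at 7.97 and 8.01 in HP1βKO, so that the WT libraries lay between the knockouts. Slc16a1 lay at -0.02 and Slc2a3 at -0.14 in this comparison and did not pass. The fibroblast markers summed to 4793.0 and 5111.1 in EB HP1αKO, near the HP1βKO sums, and the cardiac markers to 13839.6 and 13698.6. The pluripotency markers summed to 1942.1 and 1825.7 there, below the HP1βKO sums, although Sox2 was higher (9.98 and 9.95). The neuronal markers summed to 346.4 and 355.8, above the HP1βKO sums. The part of such cell types in this comparison was not tested. Of all genes called, 41.7% were higher as deposited and 52.4% after centring, which also called 6 members higher and 3 lower.

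**Figure D4:**
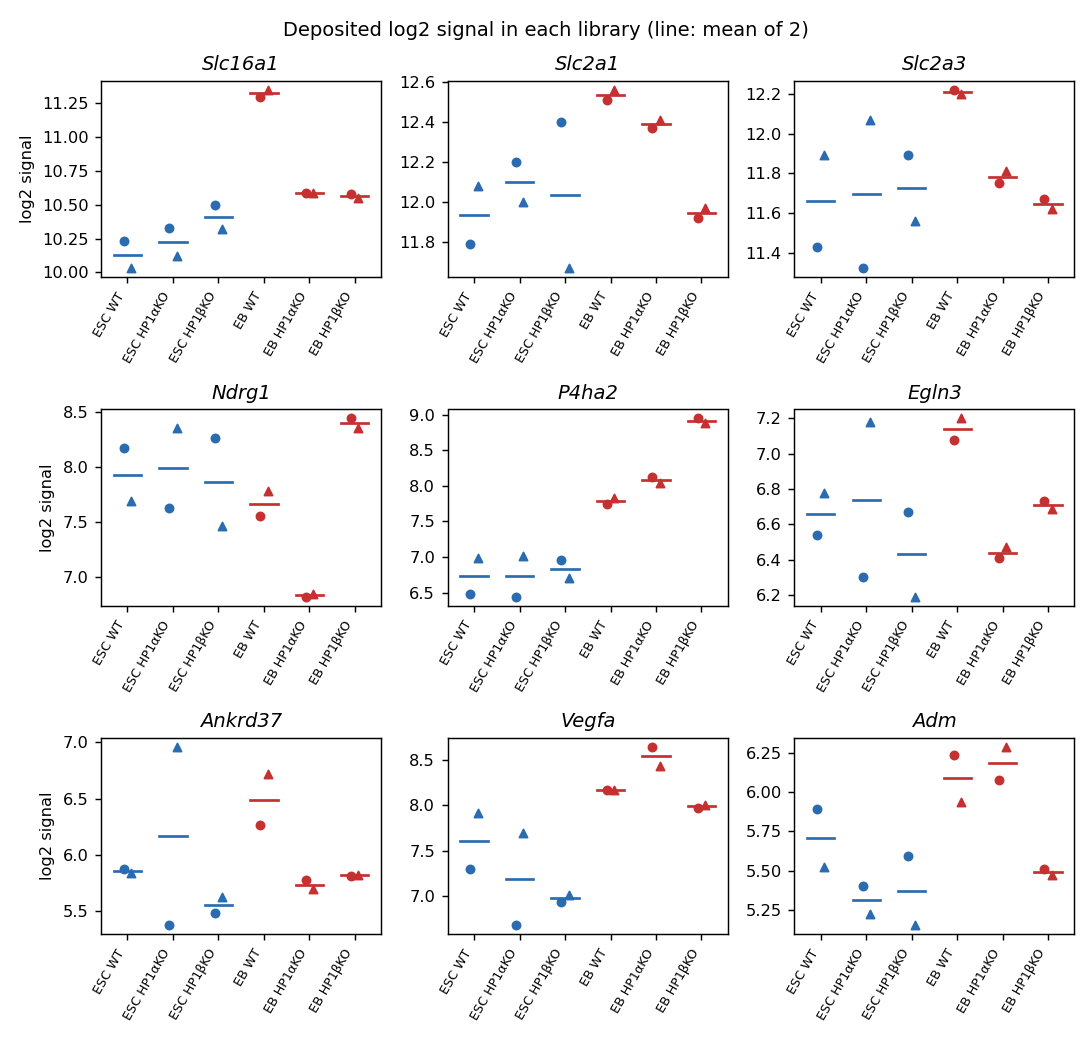
Deposited log2 signal of 9 members in each library, circles for replicate 1, triangles for replicate 2, a line at the mean of the pair, ESCs in blue and EBs in red, each panel on its own axis. EB replicates lie close together, Slc16a1 is high in EB WT alone, Ndrg1 separates the 3 EB groups, and the ESC replicates of most genes are far apart.

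In ESCs no member and no gene passed the test in either knockout. For HP1βKO against WT, limma's unadjusted p was under 0.05 for 186 of 10880 genes and for 0 of 33 members. For HP1αKO against WT it was so for 17 genes and 1 member, Pfkfb4, which was under background in both groups. The background of adjusted calls was 0.0% in both comparisons, also with the 2 label-opposing libraries left out, where 489 and 426 genes had an unadjusted p under 0.05. With all 12 arrays in the fit 0 genes passed and 638 and 116 had such a p. Member differences ran from -0.68 (Eno2, under background in both knockout libraries) to 0.42 (Slc16a3) in HP1βKO and, leaving out Pfkfb4, from -0.43 (Vegfa) to 0.59 (Ldhb) in HP1αKO. The standard errors, 0.17 to 0.61, were of the size of many differences called in EBs, so differences of that size were not resolved in ESCs.

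The ESC libraries nevertheless varied widely in the hypoxia genes, across genotype and replicate. The range over the 6 ESC libraries was wider than that over the 6 EB libraries for 24 of 33 members, with medians of 0.74 and 0.42. The library labelled ESC HP1αKO 2 was the highest ESC library for 17 of 33 members and ESC HP1βKO 1 for 11, and ESC HP1βKO 2 was the lowest for 10 and ESC HP1αKO 1 for 8. P4ha1 shows the order, which was noticed after its values were seen. It was at 8.96 in ESC HP1αKO 2, 8.54 in ESC HP1βKO 1 and 8.42 in ESC WT 1, and at 8.22, 7.78 and 7.62 in ESC WT 2, ESC HP1αKO 1 and ESC HP1βKO 2. Egln1 had the same 3 libraries on top, at 8.04, 7.84 and 7.68, and so did Ndrg1, at 8.35, 8.26 and 8.17. Other hypoxia genes were ordered differently. ESC WT 2 was the highest for Vegfa (7.92, against 6.93 in ESC HP1βKO 1) and stood behind ESC HP1αKO 2 for Bnip3 (10.03 and 10.24) and for P4ha2 (6.98 and 7.02). By label, the replicates of each knockout thus lay farther apart in P4ha1 than the means of any pair of ESC groups. Those of WT lay close together. Both statements rest on the labels of ESC WT 2 and ESC HP1αKO 2, which Cbx5 opposed. Ankrd37 was at 6.96 in ESC HP1αKO 2 and at 5.37 to 5.87 in the other 5 libraries. Among the enzymes the widest replicate gap was that of Aldoc, the brain aldolase, at 8.48 and 10.09 in ESC WT.

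**Figure D5:**
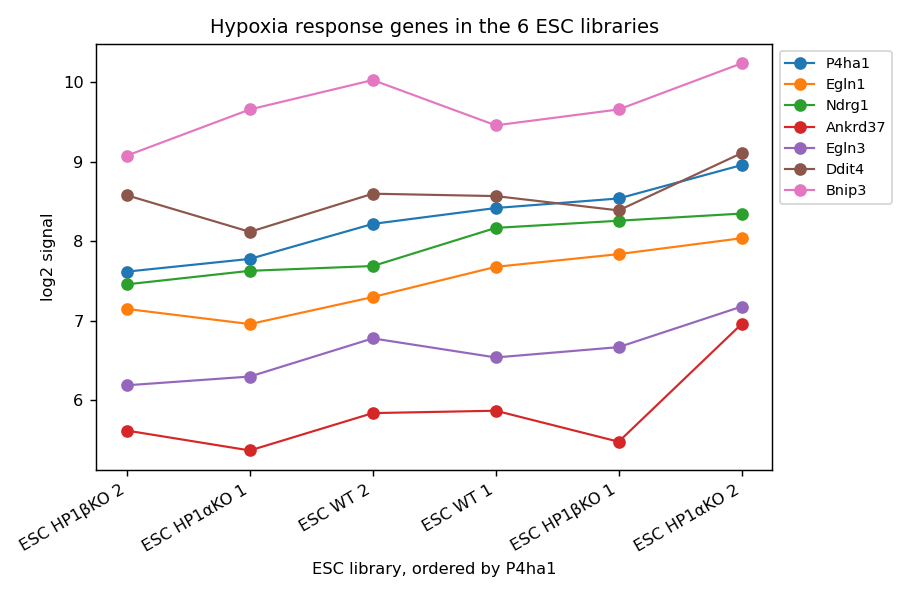
Log2 signal of 7 hypoxia response genes in the 6 ESC libraries, ordered along the axis by P4ha1, lines joining the libraries of 1 gene only to guide the eye. The order cuts across genotype, with knockout libraries at both ends and the WT libraries in the middle, P4ha1 running from 7.62 to 8.96 and Egln1 from 6.96 to 8.04.

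Whether a knockout changed a member differently in EBs than in ESCs was tested as a difference of differences over all 12 arrays. For HP1βKO 141 genes (1.3%) and 1 member passed. Slc16a1 differed from WT by 0.28 in ESCs and by -0.76 in EBs, and the difference between the states was -1.04 ± 0.19 (adjusted p = 0.0318). Without the 2 label-opposing libraries it was -0.94 (adjusted p = 0.0172), and P4ha2 (0.78, adjusted p = 0.0491) and Slc2a3 (-0.86, adjusted p = 0.0442) passed with it, against 5.77% of all genes. The call of Slc16a1 was lost on centring (adjusted p = 0.0570), and on leaving out ESC WT 2 (adjusted p = 0.0509), ESC HP1βKO 1 (adjusted p = 0.106) or any 1 of the 4 EB libraries (adjusted p of 0.135 to 0.156). For HP1αKO 25 genes (0.23%) and 0 members passed, with 3 members at an unadjusted p under 0.05. Slc16a1 gave -0.83 ± 0.19 there (adjusted p = 0.187), and Vegfa passed without the label-opposing libraries (0.99, adjusted p = 0.0484, background 1.48%).

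Other genes of the same pathways were read from lists named by function. Of 9 further regulators of the hypoxia pathway 6 rose and 0 fell in EB WT against ESC WT, where 22.0% of all genes rose, with a median of 0.50. Without the 2 label-opposing libraries 4 of the 9 rose (Cited2, Cited4, Epas1 and Hif1an), against 24.8% of all genes. With all libraries the 6 included Cited2, which competes with HIF-1 for a coactivator (1.62), Hif1an, the asparagine hydroxylase that inhibits HIF-1 (0.77), and Vhl, which targets HIF-1α for destruction (0.56, and 0.53 with an adjusted p of 0.0676 without those libraries). In EB HP1βKO Cited2 fell by 0.89 on the log2 scale and Hif3a, a further HIF subunit, was called higher but lay near background (at most 5.57, against 4.96 and 5.09 in WT). None of the 9 passed in EB HP1αKO against EB WT. Of 26 further hypoxia response genes tested, 9 rose and 2 fell in EB WT against ESC WT, where 22.0% of all genes rose and 14.2% fell. The 9 include the endothelin gene Edn1, which was under background in both groups and exceeded it in EB HP1αKO alone, so its call adds no support. The cyclin gene Ccng2 rose by 2.06, and the growth factor binding protein gene Igfbp3 fell by 1.92. Ppp1r3c, the glycogen-targeting subunit, was under background in all 6 ESC libraries (3.73 to 4.69) and at 5.75 and 5.96 in EB WT, at least 1.29-fold higher. In HP1βKO EBs 1 rose and 4 fell against WT, among them 2 glycogen genes that were under background in the knockout. Ppp1r3c was at 4.79 and 4.55 there. The liver glycogen phosphorylase gene Pygl was at 4.72 and 4.73, and in EB WT at 5.46 and 5.66, itself near background. In HP1αKO EBs Igfbp3 rose by 1.89 against WT. Edn1, which encodes endothelin, was at 6.38 and 6.29 in EB HP1αKO and under background in EB WT (4.21 and 4.44), at least 1.79-fold higher in the knockout.

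Among tissue-specific isoforms and other glycolysis genes outside the members, 3 of 9 tested rose and 2 fell in EB WT against ESC WT. Over all genes 22.0% rose and 14.2% fell. The counts include a rise of Hkdc1 and a fall of Ldhc, both under background in both groups, so these calls add no support. Hkdc1 exceeded background in EB HP1βKO 1 alone (5.52) and Ldhc in ESC HP1αKO 2 alone (5.54). In EB HP1βKO against EB WT 2 rose, Hkdc1 among them, and 3 fell, against 9.42% and 9.36% of all genes. Eno3, the muscle enolase, was at 8.87 and 8.86 in EB WT, at 9.67 and 9.65 in EB HP1αKO and at 7.58 and 7.40 in EB HP1βKO. It was lower than WT in HP1βKO (-1.37 ± 0.09, adjusted p = 7.52e-05) and higher in HP1αKO (0.80 ± 0.09, adjusted p = 0.00190). Pgam2, the muscle phosphoglycerate mutase, was at 6.12 and 6.44 in EB WT and under background in EB HP1βKO (5.23 and 4.82), at least 1.73-fold lower (adjusted p = 0.00202). The cardiac markers given above have the same order over the EB groups, and their part in Eno3 and Pgam2 was not tested. For Eno3 the HP1βKO difference also differed between EBs and ESCs (-1.72 ± 0.17, adjusted p = 0.00170).

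The pathways that follow or branch from glycolysis were compared between each knockout and WT in EBs, where 18.8% of all genes passed in HP1βKO and 12.1% in HP1αKO. Of 15 genes of the tricarboxylic acid cycle and 6 of the pentose phosphate pathway 0 passed in either knockout against WT in limma's test of the EBs. A further list held 10 genes of pyruvate entry into mitochondria and of pyruvate dehydrogenase with its regulators. Of these, 1 passed in HP1βKO and 3 in HP1αKO (Pdk2 0.50, Pdp1 0.49 and Pdp2, lower and near background in both groups). Mpc1, a subunit of the pyruvate carrier, was at 6.02 and 5.85 in EB HP1βKO and under background in EB WT (4.81 and 5.34), at least 1.36-fold higher in the knockout. Between EB WT and ESC WT, Idh3a fell (-0.82), as did Pdhb (-0.65), Dlat (-0.40) and Taldo1 (-0.55). Without the 2 label-opposing libraries Pdhb (-0.52) and Taldo1 (-0.42) did not pass, and Pdk2 (0.65, adjusted p = 0.0210) and Rpia (0.43, adjusted p = 0.0436) rose.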

How the data were processed

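Total RNA of 12 libraries was hybridised to Affymetrix arrays. The methods name the mouse exon array, whereas the annotation is that of Mouse Gene 1.0 ST, and no genome build was found in labels, methods or headers. The authors deposited log2 signals made with RMA in Affymetrix Expression Console, per the labels. Of 35556 features, 21789 carried 1 gene symbol, 1621 several and 12146 none, and the row with the highest mean was kept per gene. Following the authors' methods, genes above a signal of 45 on at least 1 array were tested.

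limma (version 3.58.1, R 4.3.3; lmFit and eBayes) was fitted to group means, within each state for knockout against WT and over all 12 arrays otherwise, with Benjamini-Hochberg adjustment over 10880 genes at 0.05. The code was tested on simulated data with 200 changed genes. The alternatives were array weights, floors, centring, averaged rows, replicate blocks, pooled groups and left-out libraries. No total count exists for arrays, so the number of arrays, 2 per group, limits precision. Members and lists were chosen with earlier results of these data known. Members past the threshold are described with their values, other lists by up to 3 of their largest called differences (Eno3, and the levels given for ESC libraries, beyond that rule). Numbers of the replicates paired the ESC libraries (correlations of replicate deviations 0.401, 0.497 and 0.300) but not the EB libraries (0.112, -0.454 and -0.092). Promoters came from RefSeq (GRCm38.p6).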

Additional observations from a re-analysis of the deposited data

Results flagged for a closer look

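Slc16a1, the lactate carrier MCT1, differed between HP1βKO and WT by -0.76 in EBs and by 0.28 in ESCs, where it was not called. The difference between the states was -1.04 by limma (adjusted p = 0.0318). This gene was singled out because the test of the difference between the states passed. The call was lost on centring each library. It was also lost without ESC WT 2, without ESC HP1βKO 1, or without any single EB library of WT or HP1βKO. In EBs the HP1βKO libraries (10.58 and 10.55) lay below the WT ones (11.30 and 11.35), and in ESCs they lay above them (10.50 and 10.32 against 10.23 and 10.03). EB HP1αKO had Slc16a1 at 10.59 and 10.59, near the HP1βKO level. The line label differs between WT and knockout in both states, so that it cannot be told apart from genotype.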

How the results depend on the processing

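No difference of a called member reversed its direction under any alternative run. Over 62 called member results, 575 of 758 comparisons with an alternative kept the call and 183 lost it. With n = 2 libraries per group the arrays, not a depth, limit the ESC comparisons, and the cause of the changes below was not tested.

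With the 4 arrays of EB WT and ESC WT alone 2219 genes and 6 members passed. With a library left out that comparison gave 1911 to 4359 genes and 4 to 10 members, HP1αKO EBs against ESCs 2566 to 4276 genes and 6 to 14 members (6 without EB HP1αKO 2), and HP1βKO EBs against ESCs 2352 to 3359 genes and 3 to 8 members (3 without EB HP1βKO 1). Without the 2 label-opposing libraries 18 members passed in HP1αKO. For EB HP1βKO against EB WT, all 12 arrays in the fit gave 353 genes and 2 members, HP1βKO against the 4 other EB libraries 968 genes and 3 members (Adm, P4ha2 and Slc2a1), and left-out libraries 1459 to 1835 genes and 7 to 10 members (7 without EB HP1βKO 2). For EB HP1αKO against EB WT, all 12 arrays gave 135 genes and 1 member, and left-out libraries 403 to 965 genes and 3 to 6 members. For EB HP1βKO against EB HP1αKO they gave 406 genes and 1 member, and 956 to 2103 genes and 3 to 7 members (3 without EB HP1αKO 1).

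For EBs against ESCs, where replicate numbers pair only the ESCs, the replicate block and the block among ESCs only gave 3344 and 4430 genes with 8 and 14 members in WT, 3927 and 4933 genes with 10 and 12 members in HP1αKO, and 3711 and 4754 genes with 9 and 11 members in HP1βKO. With a replicate block, EB HP1βKO against EB WT gave 1461 genes and 9 members and EB HP1αKO against EB WT 863 genes and 7 members. The EB numbers do not pair these libraries, and with crossed numbers, an alternative chosen after seeing the data, the first gave 3156 genes and 14 members. No ESC comparison gained a call with the block, though its numbers pair the libraries (549 and 55 genes at an unadjusted p under 0.05 for HP1βKO and HP1αKO). For the difference between states in HP1βKO (141 genes, 1 member) the block gave 367 genes, a block among ESCs only (added after seeing the data) 573, leaving out the 2 label-opposing libraries 628 genes and 3 members, and centring 0 members. Single left-out libraries gave 54 to 433 genes and 0 to 1 members. For HP1αKO (25 genes, 0 members) array weights gave 13 genes, no floor 40, a floor of 100 14, the block 57, the block among ESCs only 117 genes and 1 member, leaving out the 2 libraries 161 genes and 1 member, and single libraries 12 to 84 genes and 0 to 1 members.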
